A study of Mus musculus with 108 samples.

Results

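The chromatin state of 24963 autosomal genes was compared between the livers of 12-month-old and 3-month-old mice on standard diet. These are all genes of mm10 with a curated RefSeq transcript on chromosomes 1 to 19, out of 26089 with chromosome X included. For every gene the longest curated transcript gave 3 measurements. They were the state of the 200 bp bin that holds its transcription start site (TSS), the most frequent class of states in the 21 bins within 2 kb of the TSS (the TSS region), and the most frequent class in the bins of the gene body. The group SD 3m (standard diet, 3 months) comprised 30 ChIP-seq libraries from 8 mice, and the group SD 12m (standard diet, 12 months) 29 libraries from 8 mice. All were inbred C57BL/6 females, and chromatin was extracted from livers fixed and embedded in paraffin. A further group, CR 12m, comprised 29 libraries from 9 mice of 12 months that received 30% fewer calories, and its states are given only side by side, since it would be compared with the same SD 3m segmentation. The authors merged the libraries of a group for each of 4 histone marks before they assigned states, so that each group has 1 segmentation. A difference between SD 3m and SD 12m can therefore not be set against the spread between mice, no test between the groups exists, and a gene is called changed only because its label differs. The merged files differ in the number of libraries for each mark (H3K4me3 7 in SD 3m and 8 in SD 12m, H3K27me3 7 and 8, H3K27ac 8 and 7, H3K4me1 8 and 6), the read depth behind a label is unknown, and the part of either in the results was not tested.

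The 4 marks divide a genome into working parts. H3K4me3 sits on nucleosomes around active promoters, H3K4me1 and H3K27ac mark enhancers, where H3K27ac accompanies activity, and H3K27me3 is written by Polycomb repressive complex and keeps developmental genes silent, mostly at promoters rich in CpG. The authors' model has 8 states. States 1 (H3K4me3 and H3K27ac) and 2 (the same with H3K4me1) were merged into class TSS. States 3 (H3K27ac and H3K4me1), 4 (weaker H3K27ac) and 5 (H3K4me1 alone) formed the class enhancer, and state 6 (H3K27me3) the class Polycomb. State 7, with weak H3K4me3 and little H3K27me3, which the authors linked with repeats and lamina-associated domains, and state 8, without marks and called quiescent, were classes of their own. In bulk liver, a mark carried by fewer cells and a mark that is weaker in each cell cannot be told apart.

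As a check of the tissue, all 10 hepatocyte markers had a TSS bin in class TSS or enhancer at both ages. Of 35 transcription factors of embryonic patterning, which adult liver does not use, none was in class TSS at either age. Cps1, the first enzyme of the urea cycle, was in state 1 and Hnf4a, a transcription factor of hepatocyte identity, in state 3 in all 3 groups. Actb, the cytoskeletal actin, was in state 1 in all 3 groups, and Gapdh, an enzyme of glycolysis, was in state 2 in SD 3m and in state 1 in both groups of 12 months.

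The promoters that changed differed in their CpG content, which the segmentation does not use. To show the range, the 150 bases that end just ahead of the annotated start are given for the first named gene of 4 directions of change and for H3c3, whose promoter is richer in CpG over the surrounding 1 kb. They were read from GRCm38.p6, the assembly of mm10, with the RefSeq annotation, 5′ to 3′ on the strand of the gene, and CpG dinucleotides are in capitals. Tymp (chr15:89377037-89377186, minus strand, from enhancer to TSS) encodes thymidine phosphorylase, Pdcl2 (chr5:76331157-76331306, minus strand, from Polycomb to quiescent) a phosducin-like protein of germ cells, and Vmn2r102 (chr17:19660249-19660398, plus strand, from quiescent to state 7) a pheromone receptor of the vomeronasal organ. Hhla1 (chr15:65976805-65976954, minus strand) moved from quiescent to Polycomb. H3c3 (chr13:23745522-23745671, minus strand, from TSS to enhancer) encodes a core histone made for DNA replication.
Tymp: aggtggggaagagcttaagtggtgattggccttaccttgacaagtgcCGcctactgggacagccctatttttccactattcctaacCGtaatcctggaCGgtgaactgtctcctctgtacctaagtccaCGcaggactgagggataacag
Pdcl2: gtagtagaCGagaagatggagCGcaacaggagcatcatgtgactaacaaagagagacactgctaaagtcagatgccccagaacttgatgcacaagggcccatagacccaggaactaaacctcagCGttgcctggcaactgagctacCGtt
Hhla1: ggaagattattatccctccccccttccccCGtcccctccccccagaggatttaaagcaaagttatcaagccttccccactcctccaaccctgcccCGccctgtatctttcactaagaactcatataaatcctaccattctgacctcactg
Vmn2r102: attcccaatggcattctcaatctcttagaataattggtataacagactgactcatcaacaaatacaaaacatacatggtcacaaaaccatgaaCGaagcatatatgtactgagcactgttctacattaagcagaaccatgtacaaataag
H3c3: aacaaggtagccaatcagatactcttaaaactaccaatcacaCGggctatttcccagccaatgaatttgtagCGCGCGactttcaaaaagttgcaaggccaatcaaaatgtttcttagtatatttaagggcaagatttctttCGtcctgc
The window of Vmn2r102 held 1 CpG and that of Hhla1 2, compared to 5 in H3c3. The windows of Tymp and Pdcl2 held 4 each. The letters TATAAA were found on this strand once in the window of Hhla1 and in none of the other windows. Part of the window of Pdcl2 is also the start of the non-coding gene 4930432L08Rik on the opposite strand.

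Of the 24963 genes, 5739 had a TSS bin of another class in SD 12m than in SD 3m, which is 23.0% (Wilson 95% limits 22.5 to 23.5, counting error over genes only). The share ranged from 18.4% of the genes on chromosome 12 to 27.7% on chromosome 1. The TSS region changed class in 34.1% of the genes (33.6 to 34.7) and the gene body in 20.2% (19.7 to 20.7). Against the same SD 3m segmentation, the shares in CR 12m were 25.0% for the TSS bin, 35.6% for the TSS region and 19.2% for the gene body. Class TSS was the largest at the TSS bin and held 10279 genes in SD 3m and 8923 in SD 12m. The enhancer class went from 4679 to 6089 genes, Polycomb from 2543 to 3478, state 7 from 374 to 898 and quiescent from 7088 to 5575.

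**Figure D1:**
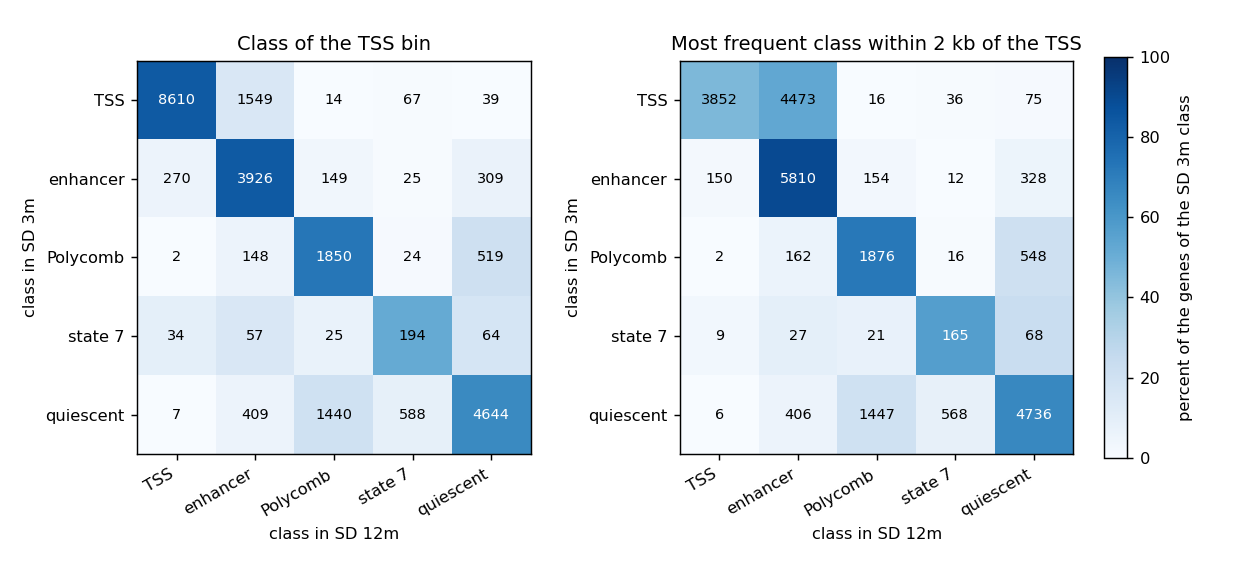
Numbers of genes by class in SD 3m (rows) and SD 12m (columns), for the TSS bin (left) and the most frequent class within 2 kb of the TSS (right). The colour is the percent of the genes of a row. At the TSS bin 8610 of 10279 genes of class TSS kept it, whereas in the TSS region 4473 of 8452 were in class enhancer in SD 12m.

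A pair of directions made up most of the changed TSS bins. In 1549 genes the TSS bin moved from class TSS to enhancer, 15.1% of the genes in class TSS in SD 3m (14.4 to 15.8). In 1440 genes it moved from quiescent to Polycomb, 20.3% of the quiescent genes (19.4 to 21.3). Next came quiescent to state 7 with 588 genes (8.30% of the quiescent genes), Polycomb to quiescent with 519 (20.4% of the Polycomb genes), quiescent to enhancer with 409, enhancer to quiescent with 309 and enhancer to TSS with 270. Changes between opposite ends of the scale were rare. From TSS to Polycomb there were 14 genes, from Polycomb to TSS 2, and from quiescent to TSS 7. State 7 was the class kept least often, with 194 of its 374 genes (51.9%) still in it in SD 12m. Of the others, 64 were then quiescent, 57 in class enhancer, 34 in class TSS and 25 in Polycomb.

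The 3 measurements did not always change together. In 13664 genes (54.7%) none of them differed, and in 2475 genes (9.91%, 9.55 to 10.3) all did. In 2110 genes the same pair of classes was found at TSS bin, TSS region and gene body, so that the whole gene appeared to move as 1 unit. Among the 2110 genes, 845 went from quiescent to Polycomb and 462 from quiescent to state 7, which together made up most of them. A further 240 went from Polycomb to quiescent, 179 from quiescent to enhancer and 166 from TSS to enhancer. A further 3176 genes (12.7%) differed only in the TSS region. At the level of gene bodies, class TSS went from 1489 to 753 genes, enhancer from 10722 to 11877, Polycomb from 2260 to 2806, state 7 from 319 to 864 and quiescent from 10173 to 8663.

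The most widespread difference lay around promoters that kept class TSS. The number of bins in states 1 or 2 within 2 kb of a TSS, out of 21, averaged 6.25 ± 7.39 in SD 3m (SD over 24963 genes) and 4.05 ± 5.23 in SD 12m. The mean difference per gene was -2.20 ± 3.45. In the 8610 genes whose TSS bin was in class TSS at both ages, the mean was 14.6 ± 4.42 in SD 3m and 9.98 ± 3.78 in SD 12m, and 8.75 in CR 12m. Of these genes 7694 (89.4%) had fewer such bins in SD 12m, 563 as many and 353 more. Both sides of the TSS took part, with 5.62 bins upstream in SD 3m and 3.30 in SD 12m, and 7.97 and 5.68 downstream. Followed beyond 2 kb, the unbroken stretch of class TSS over the start was 3.4 kb long at the median in SD 3m (quartiles 2.4 and 4.6 kb) and 2.0 kb in SD 12m (1.4 and 2.6 kb). The share of these genes in class TSS was 56.9% in SD 3m and 28.4% in SD 12m at 1 kb upstream, and 86.2% and 63.1% at 1 kb downstream. Actb had 21 such bins in SD 3m and 15 in SD 12m, and Gapdh 13 at both ages.

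**Figure D2:**
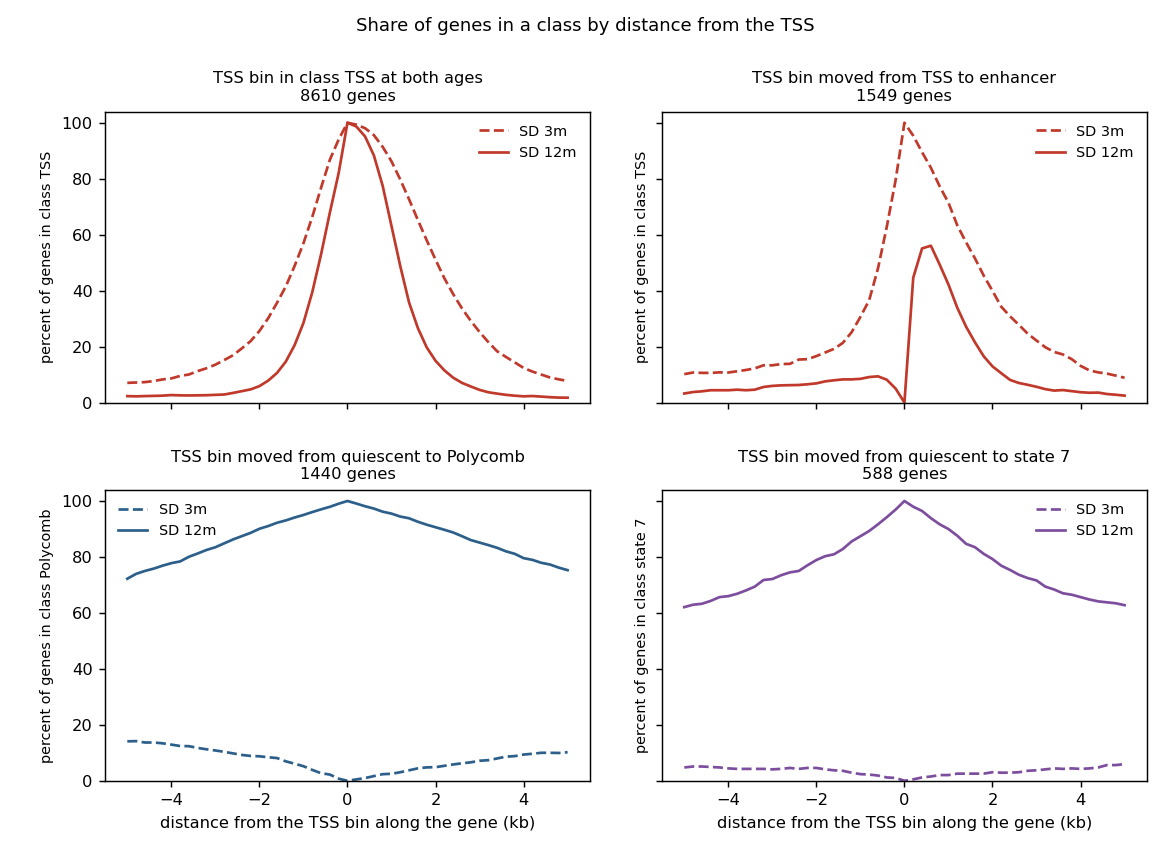
Percent of genes in a class (y axis) by distance from the TSS bin in kb, with the direction of transcription to the right, in SD 3m (dashed) and SD 12m (solid). The upper panels show class TSS in 8610 genes that kept it at the TSS bin and in 1549 genes that moved to enhancer, and the lower panels show Polycomb in 1440 genes and state 7 in 588 genes that moved there from quiescent. The upper curves are lower in SD 12m on both sides of the start, and the lower curves remain above 60% at 5 kb.

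State 2, the flanking form of class TSS, had the larger difference at the start itself. It held the TSS bin of 2569 genes in SD 3m and of 1279 in SD 12m, compared to 7710 and 7644 for state 1. From state 2, 877 TSS bins moved to state 1 and 579 to state 3, which lacks H3K4me3 but shares H3K27ac and H3K4me1. From state 1, 681 moved to state 4 and 183 to state 3. Within the enhancer class, the poised state 5 held 1628 TSS bins in SD 3m and 466 in SD 12m, and 803 of the 1628 were then in state 4.

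The 1549 genes that moved from class TSS to enhancer mostly kept class TSS in part. They had 11.3 ± 4.47 bins in states 1 or 2 in SD 3m and 4.38 ± 3.36 in SD 12m, and 341 of them (22.0%) had none left. What remained lay mainly inside the gene. At 400 bp downstream 55.1% of these genes were still in class TSS in SD 12m, at 1 kb upstream 8.46%. In the count over all genes, 12219 had at least 1 bin in states 1 or 2 in their TSS region in SD 3m and 11262 in SD 12m, with 1087 found only in SD 3m and 130 only in SD 12m.

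The genes in which this move was most complete, by the share of bins within 2 kb that made it, were Mup5, H3c3, H4c6 and Hspb2. In Mup5 (chr4:61831319-61835180), which encodes a major urinary protein secreted by hepatocytes, all 21 bins were in states 1 or 2 in SD 3m and all 21 in the enhancer class in SD 12m, and the TSS bin went from state 2 to state 3, also in CR 12m. Mup5 lies in a family of near-identical copies, and reads that map equally well to several copies had been removed, so that its values are uncertain. H3c3 and H4c6, a further core histone gene, also went from 21 to 0 bins in states 1 or 2, with a TSS bin that went from state 2 to state 3. Hspb2, a small heat shock protein, went from 21 to 1, and its TSS bin from state 1 to state 4.

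**Figure D3:**
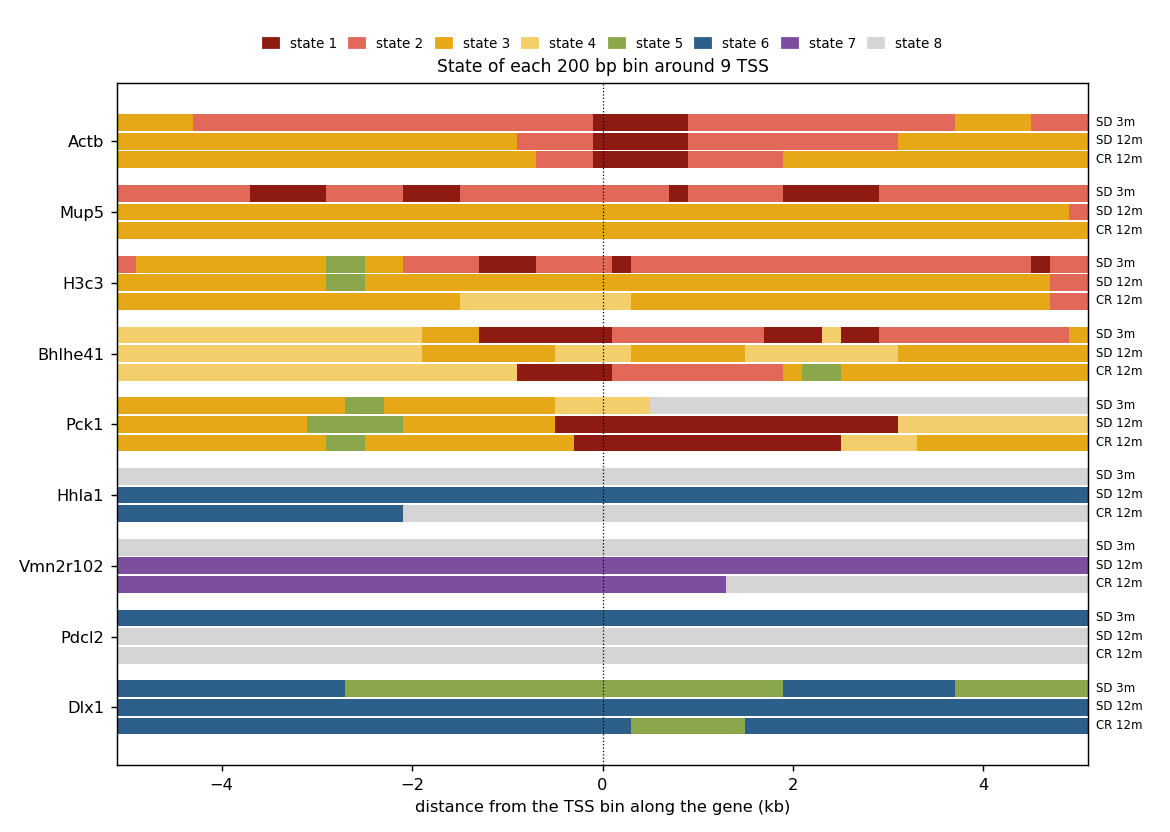
State of each 200 bp bin (colour) by distance from the TSS bin in kb, with the direction of transcription to the right, for 9 genes in SD 3m, SD 12m and CR 12m. In Mup5, H3c3 and Bhlhe41 the red states 1 and 2 over the TSS in SD 3m are replaced by enhancer states in SD 12m, in Pck1 state 1 appears in SD 12m and CR 12m, and in Hhla1, Vmn2r102 and Pdcl2 all 51 bins shown change together between SD 3m and SD 12m.

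Core histone genes of the replication type often made this move. They are transcribed when DNA is copied, and 36 of 57 had a TSS bin in class TSS in SD 3m and 15 in SD 12m. From TSS to enhancer went 21 of the 36 (58.3%), where 15.1% of all genes of class TSS did. The mean number of bins in states 1 or 2 was 12.3 in SD 3m and 3.37 in SD 12m, lower in 48 genes, higher in none and equal in 9. Among all genes with such bins in SD 3m, the mean went from 12.8 to 8.23, and 88.0% were lower. The whole family changed class at 29 of 57 TSS bins (50.9%), compared to 23.0% of all genes. In H3c8, H2ac11 and H2bc11 the TSS bin went from state 1 to state 5, with 20, 20 and 19 bins in states 1 or 2 in SD 3m and none in SD 12m. Many of these genes lie close together in the same cluster, so that they are not independent of each other, and some are near-identical in sequence.

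Of 25 cell cycle genes, 9 changed class at the TSS bin (36.0%, beside 23.0% of all genes) and 10 at the TSS region, where 34.1% of all genes did. The mean number of bins in states 1 or 2 was 9.56 in SD 3m and 4.56 in SD 12m, with 23 lower, 1 higher and 1 equal. All genes of class TSS in SD 3m went from 14.0 to 9.05 bins on average, a difference of -4.98, and 90.8% of them were lower. The 2 sets are unlike, since 7 of the 25 were in class enhancer in SD 3m. From TSS to enhancer went 6 of the 18 members of class TSS (33.3%), where 15.1% of all genes of class TSS did. Ccne2, a cyclin of S phase entry, went from state 1 to state 4 and from 15 bins to 2. Mcm6, a subunit of the replicative helicase, also went from state 1 to state 4 and from 12 bins to 3. Ccne1, the related cyclin, went from state 4 to quiescent, Bub1, a kinase of the spindle checkpoint, from state 5 to quiescent, and Ccnd1, a cyclin of G1, from state 1 to state 5 with 21 and 14 bins. Plk1, the mitotic kinase, was in state 1 in SD 3m and in state 7 in SD 12m. Among 16 genes of the p53 pathway and cell cycle inhibitors, 3 changed class at the TSS bin (18.8%). Cdkn1c, an imprinted inhibitor, went from quiescent to state 4, and Gadd45b from state 2 to state 3 and from 14 bins to 3. The TSS bin of Cdkn2a, which encodes p16 and p19, went from state 7 to Polycomb. Its TSS region and gene body were in Polycomb at both ages, and 23.8% of the bins within 2 kb made the move.

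Among the lists of pathways, the circadian clock had the largest share of changed TSS bins, 12 of 19 (63.2%, beside 23.0% of all genes). The TSS region changed in 11 (57.9%, beside 34.1% of all genes) and the gene body in 4 (21.1%, near the 20.2% of all genes). Class TSS held 14 of its TSS bins in SD 3m and 6 in SD 12m. Of the 14, 9 went to enhancer (64.3%), where 15.1% of all genes of class TSS did. Rora, an activator of the clock, went from state 1 to state 7. Bhlhe41, a repressor of the clock, went from state 1 to state 4 and from 17 bins in states 1 or 2 to none, and its TSS bin was in state 1 in CR 12m. Per1, the repressor of the core loop, went from state 2 to state 3 and from 18 bins to 6, Nr1d1, the nuclear receptor REV-ERB alpha, from state 2 to state 3 and from 21 to 10, and Ciart, also a repressor, from state 2 to state 3 and from 12 to 2. Bhlhe40 moved from state 1 to state 4 with 21 and 13 bins. In the opposite direction the TSS bins of Arntl and Npas2, the activators that pair with or replace CLOCK, went from state 4 and state 5 to state 1. The hour at which the livers were collected is not given in the sources used here.

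Of 26 genes of the interferon response and inflammation, 12 changed class at the TSS bin (46.2%, beside 23.0% of all genes). The TSS region changed in 9 (34.6%) and the gene body in 6 (23.1%), near the 34.1% and 20.2% of all genes. Class TSS held 12 of the TSS bins in SD 3m and 5 in SD 12m, and 6 of the 12 went to enhancer, where 15.1% of all genes of class TSS did. In no gene of the list was the number of bins in states 1 or 2 higher in SD 12m, and in 14 it was lower, while it was lower in 88.0% of all genes that had such bins in SD 3m. Isg15, an interferon-induced ubiquitin-like protein, went from state 2 to state 3 and from 18 bins to 1. Mx2, an antiviral GTPase, went from state 2 to state 3 and from 13 to 3. Oas2, a sensor of double-stranded RNA, moved from state 5 to Polycomb and Il6, the cytokine, from state 5 to quiescent. Saa1, an acute-phase protein of hepatocytes, went from quiescent to state 5.

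Among 78 cytosolic ribosomal protein genes 7 changed class at the TSS bin (8.97%, beside 23.0% of all genes) and 39 at the TSS region, where 34.1% of all genes did, and the mean number of bins in states 1 or 2 was 14.1 and 9.47, close to the 14.6 and 9.98 of all genes that kept class TSS. Rpl36 went from state 2 to state 3 with 18 and 7 bins. Among 25 writers and erasers of the marks, 5 changed class at the TSS bin and 8 at the TSS region (32.0%), near the 23.0% and 34.1% of all genes. In 21 the number of bins in states 1 or 2 was lower, in none higher and in 4 equal, where it was lower in 89.4% of all genes that kept class TSS. Cbx7, a reader of H3K27me3, went from state 1 to state 3 and from 13 bins to 2, Sirt1, a NAD-dependent deacetylase, from state 1 to state 4 and from 17 to 7, Ezh1, a methyltransferase for H3K27, from state 2 to state 3 and from 11 to 6, and Kdm1a, a demethylase of H3K4, from state 1 to state 4 and from 9 to 5. Crebbp, an acetyltransferase for H3K27, had 11 bins in states 1 or 2 at both ages, while its TSS bin went from state 4 to state 7.

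**Figure D4:**
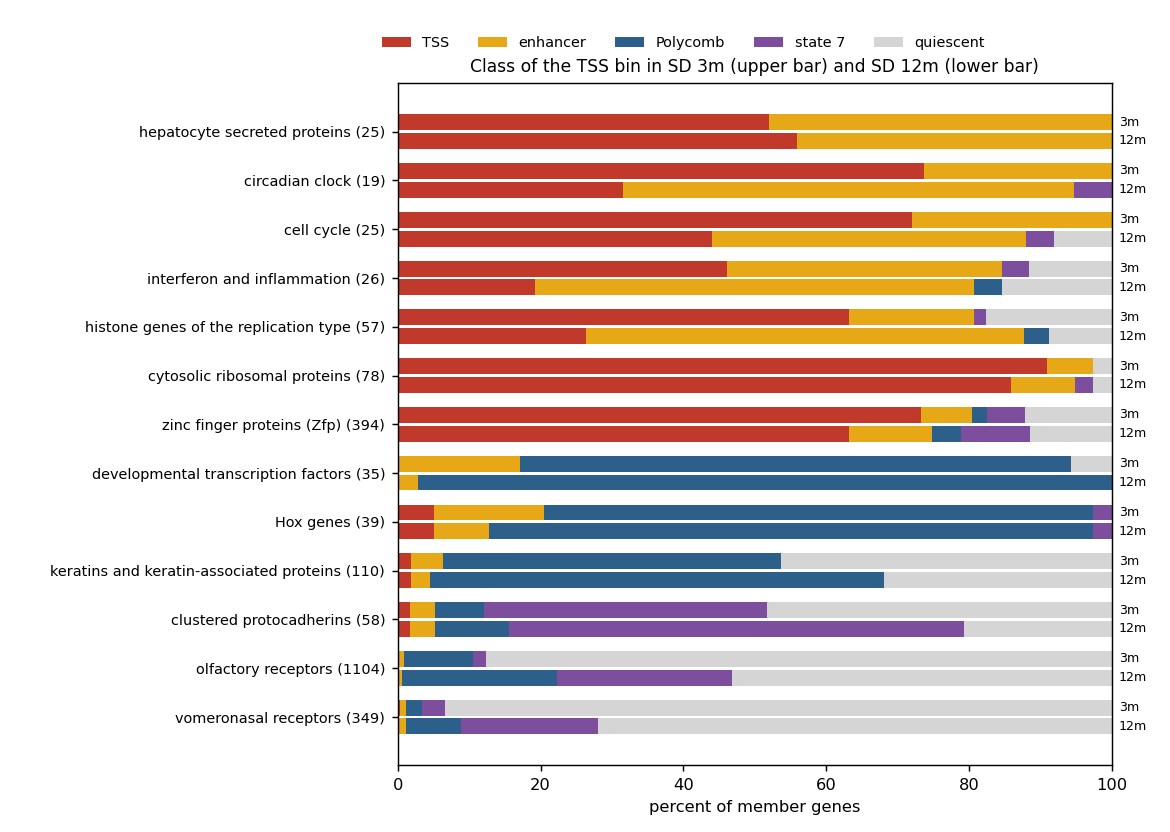
Percent of the members of 13 gene groups (number of genes in parentheses) with the TSS bin in each class (colour), in SD 3m (upper bar) and SD 12m (lower bar). The red class TSS shrinks in circadian clock, cell cycle, interferon and histone genes, Polycomb (blue) reaches 34 of 35 developmental transcription factors, and state 7 (purple) expands in protocadherins and in olfactory and vomeronasal receptors.

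Genes of hepatocyte function moved both ways. Of 25 genes for secreted plasma proteins, 9 changed class at the TSS bin (36.0%, beside 23.0% of all genes), and all 25 remained within classes TSS and enhancer. From TSS to enhancer went 4 of 13, where 15.1% of all genes of class TSS did, and from enhancer to TSS 5 of 12, where 5.77% of all genes of class enhancer did. Apoa2, an apolipoprotein of HDL, went from state 2 to state 3 and from 13 bins in states 1 or 2 to none. Apoa1, the main apolipoprotein of HDL, went the other way, from state 4 to state 1 and from 3 bins to 10, and was in state 3 in CR 12m. Fgb and Fgg, chains of fibrinogen, went from state 4 to state 1 with 8 and 11 bins for Fgb and 9 and 12 for Fgg, and were in state 1 in CR 12m as well. F2, prothrombin, moved from state 1 to state 3 with 13 and 10 bins. Ttr, which carries thyroid hormone and retinol, moved from state 3 to state 2 with 10 and 11 bins, a change of class at the start with hardly any change in breadth. Of 10 hepatocyte markers, 3 changed class at the TSS bin, all from enhancer to TSS.

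In the genes of glucose, amino acid and urea metabolism, 6 of 20 TSS bins changed class (30.0%, not far from the 23.0% of all genes). Pck1, the rate-limiting enzyme of gluconeogenesis, had no bin in states 1 or 2 in SD 3m and 13 in SD 12m, its TSS bin went from state 4 to state 1 in both groups of 12 months, and its gene body went from quiescent to class TSS. Sds, which degrades serine, went from quiescent to state 1 and from 0 to 8 bins. Slc2a2, the glucose transporter GLUT2, went from state 2 to state 3 and from 20 bins to 10, Gys2, the liver glycogen synthase, from state 1 to state 3 and from 11 to 5, and Arg1, the arginase of the urea cycle, from state 2 to state 4 and from 15 to 10.

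Of 25 cytochrome P450 genes, the oxidases of drug and steroid metabolism, 8 changed class at the TSS bin (32.0%, beside 23.0% of all genes). Cyp2a5 and Cyp2a4, near-identical copies whose values are uncertain for the same reason as those of Mup5, went from quiescent to state 5, with state 3 in CR 12m. Cyp3a16 went from state 7 to state 4, Cyp4a14, an omega-hydroxylase of fatty acids, from state 3 to state 1 and from 6 bins in states 1 or 2 to 11, and Cyp2e1, the ethanol-oxidizing enzyme, from state 4 to state 1 and from 9 to 11. Of 20 hepatocyte transcription factors 2 changed class at the TSS bin. Onecut1 went from state 4 to state 1 with 10 and 14 bins and Nr1h4, the bile acid receptor FXR, from state 2 to state 3 with 11 and 8. Of 25 genes of lipid and sterol metabolism 3 changed (12.0%), all from TSS to enhancer. They were 13.0% of the 23 members in class TSS in SD 3m, near the 15.1% of all genes of class TSS. Among the 3 was Insig2, which retains the sterol sensor in the endoplasmic reticulum, with 11 bins in states 1 or 2 in SD 3m and 7 in SD 12m.

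In the growth hormone, IGF and insulin axis 6 of 20 TSS bins changed class (30.0%, not far from the 23.0% of all genes). Socs3 and Stat5a, which act downstream of the growth hormone receptor, went from class TSS to state 3, with 14 and 8 bins for Socs3 and 12 and 7 for Stat5a. Igfbp3, a carrier of IGF, went from Polycomb to quiescent in both groups of 12 months. In Irs2 and Igf1r the TSS bin was in state 7 in SD 3m and in states 4 and 6 in SD 12m, yet bins in states 1 or 2 lay within 2 kb of both at both ages, 7 and 10 for Irs2 and 5 and 8 for Igf1r.

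The genes with the most complete move from enhancer to TSS were Tymp, Agxt, Ddah1 and Pcgf5. Tymp (chr15:89371631-89377036) went from 4 to 16 bins in states 1 or 2 and its TSS bin from state 5 to state 1, with state 3 in CR 12m. Agxt, the peroxisomal enzyme that detoxifies glyoxylate in hepatocytes, went from 0 to 11 bins, and from state 3 to state 1. Ddah1, which breaks down methylated arginine, and Pcgf5, a subunit of a Polycomb complex, both went from 3 to 11 bins. The moves were less complete than in the other directions, covering 61.9% of the bins in Tymp and 38.1% in Pcgf5.

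Polycomb was gained mainly from quiescent chromatin and over long stretches. In the 1440 genes that made this move, 90.1% had a bin in Polycomb at 2 kb upstream and 72.2% at 5 kb upstream in SD 12m, compared to 8.75% and 14.1% in SD 3m. The unbroken Polycomb stretch over their start was 25.6 kb long at the median (quartiles 12.8 and 51.5 kb) in SD 12m. In the 1850 genes in Polycomb at both ages, the median stretch was 36.0 kb in SD 3m and 44.8 kb in SD 12m. In Hhla1 (chr15:65922443-65976804), Disp3 (chr4:148236857-148287965), Kcnk9 (chr15:72506986-72547699) and Nlrp14 (chr7:107166990-107198103) every bin of the TSS region and of the gene body was quiescent in SD 3m and in Polycomb in SD 12m. These bodies hold 273, 256, 205 and 157 bins. Kcnk9 encodes a potassium channel of neurons and Nlrp14 a protein of germ cells. In CR 12m the TSS bin of Disp3 was in Polycomb and those of the other 3 were quiescent.

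Most genes that Polycomb is known to silence were in Polycomb at both ages, and the share that changed class was at or below the 23.0% of all genes. Of 35 developmental transcription factors, 27 had a TSS bin in Polycomb in SD 3m and 34 in SD 12m, the exception being Lhx2 in class enhancer. The 7 that changed all moved to Polycomb, among them Dlx1, Dlx2, Pax9 and Lhx1 from state 5 and Tbx5 and Tlx3 from quiescent. In Dlx1, which acts in forebrain development, 95.2% of the bins within 2 kb made the move, and in Tbx5, which acts in heart and forelimb, all of them. Of 39 Hox genes, which set position along the body axis, 30 were in Polycomb in SD 3m and 33 in SD 12m. Hoxa3 and Hoxa7 came from state 5 and Hoxb5 from state 4. Of 110 keratin and keratin-associated genes, structural proteins of epithelia and hair, 22 changed class and 18 of these went from quiescent to Polycomb. This was 35.3% of the 51 that were quiescent in SD 3m, where 20.3% of all quiescent genes did so. In Krt5 and Krt71 the whole body and the whole TSS region moved.

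Markers of the other liver cells differed by cell type. The lists are short, with 8 to 12 genes, so that their shares are uncertain, while 23.0% of all genes changed class. Of 10 markers of stellate cells, which store retinoids and form matrix, 5 changed class, all to Polycomb, Col1a2, Des, Lrat and Rgs5 from quiescent and Col3a1 from state 7. At the TSS bin, Polycomb held none of the list in SD 3m. The gene body of Lrat was in Polycomb at both ages, that of Rgs5 in class enhancer, and those of Col1a2 and Col3a1 were quiescent. The body of Des went from enhancer to Polycomb. Of 11 markers of Kupffer cells and macrophages on autosomes, 3 changed class (27.3%), a share near that of all genes, and these 3 also went to Polycomb, Marco from quiescent, Adgre1 from state 5 and Cd5l from state 7. The list had 4 genes in Polycomb in SD 3m and 7 in SD 12m. Of 8 cholangiocyte markers 5 changed class (62.5%). Among these, Krt7 went from quiescent to Polycomb, Sox9 from state 7 to state 4 and Cftr from state 7 to quiescent. Prom1 went from state 3 to state 2, with 9 and 7 bins in states 1 or 2 and a TSS region in class enhancer at both ages. Of 12 endothelial markers 8 changed class at the TSS bin (66.7%), in several directions and none to Polycomb. Their TSS region changed in 4 (33.3%) and their gene body in 2 (16.7%), near the 34.1% and 20.2% of all genes. Cdh5, the cadherin of endothelial junctions, went from quiescent to state 1 and from 0 to 7 bins in states 1 or 2. Vwf went from quiescent to state 4, Clec4g from quiescent to state 7, and Pecam1 and Oit3 from state 2 to state 3. The TSS region was quiescent at both ages in Clec4g and in class enhancer at both ages in Pecam1. Of 12 lymphocyte markers 1 changed class (8.33%), Gzmb from quiescent to Polycomb. The part of these cell types in the values of the interferon and inflammation genes was not tested.

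State 7 was gained at other genes than Polycomb, mostly at clustered sensory receptors. Of the 588 genes that moved from quiescent to state 7, 260 (44.2%) were olfactory receptors and 58 (9.86%) vomeronasal receptors, families that adult liver does not use. Of 968 olfactory receptors that were quiescent in SD 3m, 26.9% moved to state 7 and 14.9% to Polycomb, while 8.30% and 20.3% of all quiescent genes did so. Of 326 quiescent vomeronasal receptors 17.8% moved to state 7 and 6.44% to Polycomb. In all, 433 of 1104 olfactory receptors (39.2%) and 85 of 349 vomeronasal receptors (24.4%) changed class at the TSS bin. Both are families of many similar copies, in which reads that map to several places had been removed. In Vmn2r102, Vmn2r98, Vmn2r111 and Vmn2r109, all on chromosome 17, every bin of TSS region and gene body was quiescent in SD 3m and in state 7 in SD 12m, and the TSS bins of all but Vmn2r111 were in state 7 in CR 12m as well. Of 58 clustered protocadherins, adhesion proteins that tell neurons apart, 23 changed class at the TSS bin (39.7%, beside 23.0% of all genes). State 7 held 23 of them in SD 3m and 37 in SD 12m. From quiescent to state 7 went 15 of 28 (53.6%), where 8.30% of all quiescent genes did. Pcdhb17 and Pcdhb11 moved from quiescent to state 7 and Pcdhb8 the other way.

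Where state 7 was gained, it too extended beyond the gene. The unbroken stretch over the start was 18.6 kb long at the median in SD 12m (quartiles 9.2 and 37.4 kb), and 62.1% of the 588 genes were in state 7 at 5 kb upstream. A further 67 genes moved from class TSS to state 7, all of them from state 1, and 19 of these (28.4%) were zinc finger genes named Zfp, mostly repressors of repeats. This was 6.57% of the 289 Zfp genes in class TSS in SD 3m, where 0.652% of all genes of class TSS made the move. Of the 67 genes, 14 lay on chromosome 17 and 9 on chromosome 13. Zfp820 on chromosome 17 went from state 1 to state 7 and from 6 bins in states 1 or 2 to none, and its TSS bin was in state 7 in CR 12m. The Zfp family changed class in all at 79 of 394 TSS bins (20.1%).

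The reverse move, from Polycomb to quiescent, was made by 519 genes, and it covered every bin of TSS region and gene body in Pdcl2, Gp2, Sec14l3 and Ccdc110. Gp2 is a glycoprotein of pancreatic zymogen granules and Sec14l3 a lipid-binding protein. The TSS bins of Pdcl2, Gp2 and Ccdc110 were quiescent in CR 12m and that of Sec14l3 was in Polycomb. The Polycomb stretch over these 519 starts had a median of 19 kb in SD 3m, shorter than the 36.0 kb of the genes that kept Polycomb. At 2 kb upstream 86.1% of them were in Polycomb in SD 3m and 8.48% in SD 12m.

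Enhancer states were both gained and lost at starts without class TSS. The 409 genes that moved from quiescent to enhancer included Ccdc24, Tnfrsf4, Egfl8 and Ly6l, short genes that were quiescent in every bin in SD 3m and in the enhancer class in every bin in SD 12m, with the TSS bin in state 4 in SD 12m and CR 12m. Tnfrsf4 encodes OX40, a costimulatory receptor of T cells. Among the 309 genes that moved from enhancer to quiescent, the most complete moves were at the olfactory receptors Olfr433, Olfr432 and Olfr1160 and at Aspn, a proteoglycan of the matrix. From enhancer to Polycomb moved 149 genes, among them Fpr2, a receptor for formylated peptides on phagocytes, Cd34, a surface protein of blood precursors and endothelium, and Fcrl1, a receptor of B cells. In all 3 the TSS bin was in state 5 in SD 3m and in Polycomb in SD 12m, and all 21 bins around it made the move. In CR 12m it was in Polycomb in all 3 as well.

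The direction a promoter took differed with its CpG content. The ratio of observed to expected CpG over the 1 kb around the TSS had a median of 0.766 in genes that kept class TSS and of 0.658 in those that moved from TSS to enhancer. Below a ratio of 0.2, 46.2% of 199 genes kept class TSS, and at 0.8 and above 89.0% of 3953. Among quiescent genes, 13.4% of the 3420 with a ratio below 0.2 moved to Polycomb, compared to 45.6% of the 583 between 0.6 and 0.8 and 37.5% of the 280 at 0.8 and above. State 7 had the opposite order at the low end, with 11.7% below 0.2 and between 4.25% and 6.00% above. Genes that moved from quiescent to state 7 had the lowest CpG ratio of the directions with more than 100 genes, with a median of 0.147 and 38.2% G and C, compared to 0.190 and 45.7% for genes that remained quiescent and 0.330 and 51.2% for those that moved to Polycomb. Repeats covered 21.6%, 21.5% and 16.2% of the TSS region in these 3 sets at the median. These are descriptions over genes, and families of neighbouring genes share both sequence and class. The median ratio of the olfactory receptors, which made up 44.2% of the genes that moved to state 7, was 0.137.

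**Figure D5:**
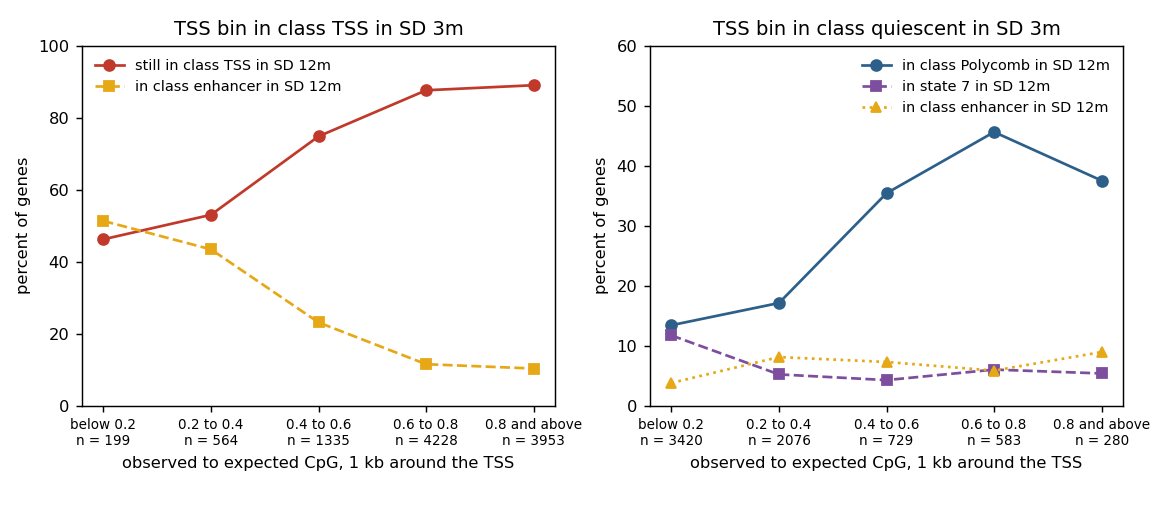
Percent of genes that took each course to SD 12m (y axis) by the ratio of observed to expected CpG around the TSS (x axis, number of genes below), for genes of class TSS in SD 3m (left) and quiescent genes in SD 3m (right). Class TSS was kept by 46.2% of genes in the lowest stratum and 89.0% in the highest, and the share that moved to Polycomb went from 13.4% to 37.5% with a maximum of 45.6%.

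Genes also differed by length. The TSS bin changed class in 37.8% of the 935 genes of 200 kb or more, compared to 21.0% of those from 10 to 50 kb and 24.5% of those under 2 kb. The median length was 16.6 kb for genes that moved from quiescent to Polycomb, with an upper quartile of 88.0 kb, 1.98 kb for those that moved to state 7 and 5.62 kb for those that remained quiescent. The genes gained by Polycomb also lay far from their neighbours, with 37.6 kb at the median to the nearest other TSS, whereas it was 9.89 kb for genes that kept class TSS and 17.7 kb for all. By type, 23.0% of 20021 protein-coding genes, 24.9% of 3220 long non-coding RNA genes and 24.6% of 122 small nucleolar RNA genes changed class at the TSS bin. Of these small nucleolar RNA genes, most of which lie within host genes, 58 were in class TSS in SD 3m and 32 in SD 12m.

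Some of the changes came in runs of neighbouring genes. There were 170 runs of at least 3 consecutive genes, counted once for each TSS bin, with the same change of class, and 3 runs of at least 10. The 170 runs held 635 genes, while 5739 genes in all changed class at the TSS bin. How many runs would arise by chance was not tested. The longest was a run of 12 olfactory receptor genes from Olfr1286 to Olfr1301, among them the pseudogene Olfr1300-ps1, on chromosome 2 (first TSS 111420949, last TSS 111754251), which went from quiescent to state 7. The longest run from quiescent to Polycomb held 9 genes over 106 kb on chromosome 7 (103840521 to 103946568). It comprised the embryonic globin genes Hbb-bh2, Hbb-bh1 and Hbb-y and 6 olfactory receptors next to them. The longest from TSS to enhancer held 6 histone genes over 48.4 kb on chromosome 13 (21735034 to 21783397), namely H4c11, H4c12, H2ac15, H2bc15, H1f5 and H3c11. A further run of 5 histone genes on the same chromosome, H3c3, H2bc3, H2ac4, H3c2 and H4c2, spanned 11.4 kb.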

How the data were processed

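ChIP-seq libraries for H3K4me3, H3K27me3, H3K27ac and H3K4me1 were grouped by the age and diet in the sample labels. The authors aligned reads to mm10 (BWA 0.6.2-r126, SAMtools 0.1.18), removed reads that mapped poorly or in duplicate, merged libraries by group and mark, binarized and segmented them with ChromHMM, and deposited 1 state label from 1 to 8 for every bin of 200 bp. A deposited label holds no signal, and the deposited tables name their group only by title. No column of another sample was present. SD 6m was not analysed here.

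Genes were taken from the RefSeq annotation of GRCm38.p6 (45657 curated transcripts), 1 transcript a gene, the longest by genomic span. Bins of SD 3m and SD 12m were joined by position. Ties between classes went to the class of the TSS bin, otherwise to the lower state number. CpG ratios were computed over 1000 bp around the TSS. Computation used Python 3.11.15, numpy 2.4.6, pandas 2.3.3, scipy 1.17.1 and matplotlib 3.10.9. In a copy of the SD 3m segmentation, all 21 bins of the TSS region were set to another class in 200 genes without close neighbours. All 200 were recovered, which checks the code and not the detection of partial or noisy changes. Wilson limits cover counting error over genes only, and no test was made.

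The genes and lists were chosen with earlier results of these data known. Genes were named by rule: in each of the 8 directions with the most protein-coding genes, the 4 with the largest share of TSS region bins making that change, up to 5 changed members of each list by the same ranking, the longest run for each of 3 directions, and 6 check genes (Ttr, Cyp2e1, Cps1, Hnf4a, Gapdh, Actb). Plk1, Rora, Arntl, Npas2, Pax9, Lhx1, Lhx2, Cdh5, Zfp820 and the run from H3c3 to H4c2 were added after their values were seen. The patterns for histone and microRNA genes were corrected after values were seen, to leave out H13, H19 and microRNA host genes. The marker Vsig4 lies on chromosome X and was left out. The sequences are the bases ahead of the TSS in place of the whole TSS bin, and that of H3c3 was added. Some genes and sequences that the rule names are not reported here. Alternatives concerned the genes included, the TSS, the classes and the windows.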

Additional observations from a re-analysis of the deposited data

How the results depend on the processing

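No paired analysis was possible because the libraries were merged before states were assigned, and for the same reason no replicate could be left out. Of 37 values recomputed under 12 alternatives, 14 remained within the counting limits of the reported value and 23 moved out of them. A share of genes cannot be negative, so only the mean difference in bins could have changed direction. It was negative under every alternative computed for it. The share of genes with a changed TSS bin was 32.7% with all 8 states kept apart, 20.4% with states 7 and 8 merged, 19.7% in genes whose TSS bin and both neighbours had 1 class, and 22.2% without olfactory and vomeronasal receptors, an alternative chosen after seeing the data. For the TSS region the values were 46.4% (8 states), 31.6% (7 and 8 merged), 36.0% (protein-coding genes), 25.4% (bins within 1 kb) and 33.0% (1 class in at least 50% of the bins). For the gene body they were 30.4% (8 states), 17.4% (7 and 8 merged), 18.7% (1 class in at least 50% of the bins), 17.3% (without the bins within 2 kb of the TSS) and 19.2% (without the receptors). The share changed at all 3 levels was 15.1% (8 states), 7.71% (7 and 8 merged), 8.95% (protein-coding genes) and 8.46% (without the receptors). The mean difference in bins of states 1 and 2 was -2.47 in protein-coding genes, -2.14 with chromosome X, -2.16 with 1 gene for each TSS bin, -3.91 within 5 kb and -2.34 without the receptors. Adding chromosome X moved no share beyond these limits. How depth limited the detection of a mark could not be measured from state labels.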

Other observations

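Of 1090 microRNA genes, 210 changed class at the TSS bin (19.3%, beside 23.0% of all genes). Their annotated start is that of the hairpin and not of the primary transcript. Class TSS held 115 of them in SD 3m and 86 in SD 12m. From quiescent to enhancer moved 63 (13.0% of the quiescent members, beside 5.77% of all quiescent genes). From quiescent to Polycomb moved 43 (8.9%, beside 20.3%). From TSS to enhancer moved 36 (31.3% of the members of class TSS, beside 15.1% of all genes of that class). Of 74 defensin genes, antimicrobial peptides of epithelia, 13 changed class (17.6%). Of these, 8 went from quiescent to Polycomb (13.6% of the quiescent members, beside 20.3% of all quiescent genes). Another 4 went from quiescent to state 7 (6.78%, beside 8.3%). The 148 genes that moved from Polycomb to enhancer were nearly as many as the 149 that moved from enhancer to Polycomb. All but 11 of the 148 were in state 4 in SD 12m, whereas 130 of the 149 came from state 5.

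The 7 genes that moved from quiescent to class TSS were Vav3, Sds, Rad51ap1, Zfp28, Cdh5, 2610027K06Rik and Avpr1a, named after their values were seen. In Rad51ap1 the TSS region had 5 bins in states 1 or 2 in SD 3m and 6 in SD 12m, so the change concerned the bin of the start and not the region. Cdh5 and Sds had none in SD 3m and 7 and 8 in SD 12m.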
